A study of Saccharomyces cerevisiae with 10 samples.

Results

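The structural mannoproteins of the yeast cell wall were represented by 10 genes, out of 6292 open reading frames on the arrays. They are HPF1 (YOL155C), CWP1 (YKL096W), CWP2 (YKL096W-A), CCW12 (YLR110C), SRL1 (YOR247W) and SED1 (YDR077W), here called the GPI-type group, and PIR1 (YKL164C), HSP150 (YJL159W), PIR3 (YKL163W) and CIS3 (YJL158C), here called the PIR group. The genes were listed by name and chosen by their mean log2 ratio over the hours, which was already known for this experiment. Those means are therefore given as a description, without a test.

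The series holds 10 arrays with 2 channels each, 1 for each hour from 1 to 10. The cells were Saccharomyces cerevisiae, wild-type and diploid, with no engineered allele named in the labels. In channel 1 was RNA from filamentous-form cells, grown for the stated number of hours on SLAD agar, where ammonium is scarce. In channel 2 was RNA from yeast-form cells in SHAD, a liquid medium with plentiful glucose and ammonium. The groups thus differ in nitrogen supply and also in growth on agar or in liquid, and these differences cannot be told apart. Whether channel 2 held the same yeast-form extract on all arrays is unknown here.

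The outer layer of the yeast wall is made of mannoproteins, which carry chains of mannose on serine, threonine and asparagine. Proteins made with a GPI lipid anchor are cut from the plasma membrane and joined through beta-1,6-glucan to the wall. PIR proteins, named for their internal repeats, lack such an anchor and are joined to beta-1,3-glucan by an alkali-sensitive bond. SRL1 was placed with the first group by its place in the list, and its manner of attachment was not examined here.

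Each value is a log2 ratio, written as filamentous over yeast form, relative to the median of its array. The labels do not state this direction, which is likely from the channel order and from higher ratios of genes of low-ammonium growth. Among such genes GAP1, the general amino acid permease, had a mean of 1.75 ± 0.33 and MEP2, an ammonium permease, 1.15 ± 0.45 (SD over hours, n = 10 each). A ratio says nothing about how much of a transcript was present, so expression of diploid or haploid marker genes could not be judged from it. Of 5 genes that diploids keep off, MFA2 was higher at 0.79 ± 0.75, STE3 and HO were lower at -0.55 ± 0.64 and -1.17 ± 1.14, and FUS1 and STE2 did not pass in limma (0.53 ± 1.18 and 0.50 ± 1.37). There was 1 array per hour and no repeat, so the scatter over hours was the measure of error, and the number of arrays limits the precision. Arrays had between 5802 and 6063 values, and arrays resembled each other more where both were of odd hours or both of even hours. Across the 4956 genes with all values, Pearson's r averaged 0.65 for the 20 array pairs both odd or both even, and 0.50 for the 25 others. The labels name no batch of this sort, and means within odd and even hours are given below.

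Across the 10 hours, 9 of the 10 mannoprotein transcripts had mean ratios below the array median, and PIR3 was the exception. The median of the 10 means was -2.33, against 0.08 over all 5775 genes tested. On every array 8 of the 10 genes lay below 0. Of all genes tested, 14.4% lay below the median on every array that measured them. The genes were listed with these means known, so nothing is read from that count. All 10 genes had a value at every hour.

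**Figure D1:**
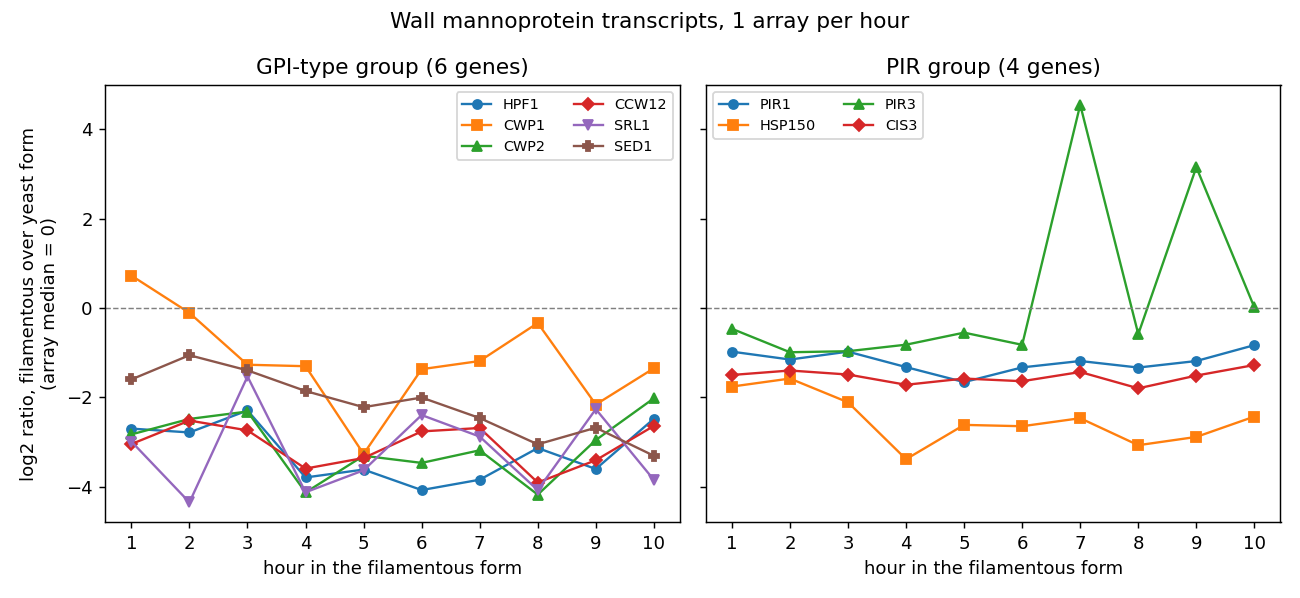
Log2 ratio of filamentous over yeast form (vertical axis, array median at 0) against hour (horizontal axis) for the 6 GPI-type genes on the left and the 4 PIR genes on the right, with 1 point per array. HPF1, CWP2, CCW12 and SRL1 stay between -4.35 and -1.53, and PIR3 stands at 4.54 at hour 7 and 3.15 at hour 9.

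The lowest ratios belonged to HPF1, SRL1, CWP2 and CCW12. HPF1, a heavily mannosylated protein named for reducing protein haze in wine, ran from -4.07 at hour 6 to -2.29 at hour 3, with a median of -3.37. Its mean was -3.23 ± 0.63 (SD, n = 10), a ratio 9.38-fold below the array median. Fold values here and below are all relative to the array median. On the deposited scale, without centring, the mean of HPF1 was -2.93. Only 3 of all genes tested had a lower centred mean (a higher one, with the direction of the ratio turned). On each array HPF1 lay within the lowest 0.962% of genes.

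CWP2, a small and abundant wall protein needed for normal wall stability, ran from -4.17 at hour 8 to -2.02 at hour 10, with a median of -3.07 and a mean of -3.09 ± 0.72 (8.49-fold lower). CCW12, whose loss weakens the wall more than that of most other mannoproteins, ran from -3.90 at hour 8 to -2.52 at hour 2. Its median was -2.90 and its mean -3.06 ± 0.47 (8.36-fold lower). CCW12 had the smallest scatter of the GPI-type group and stayed within the lowest 0.603% of genes on each array. For CWP2 this bound was 1.98%.

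SRL1, a mannoprotein that together with SED1 helps cells tolerate the loss of several GPI-anchored wall proteins, ran from -4.35 at hour 2 to -1.53 at hour 3. Its median was -3.31 and its mean -3.21 ± 0.94. SRL1 had a mean of -2.66 over odd hours and -3.76 over even hours, a difference that was not tested. The values overlapped, with even hour 6 at -2.39 above odd hours 1, 5 and 7. The difference of means was 0.04 for HPF1 and CCW12, as odd minus even, and 0.34 for CWP2.

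SED1 is a stress-related GPI protein that is abundant in stationary phase. Its ratios from hour 1 to hour 10 were -1.60, -1.06, -1.40, -1.86, -2.22, -2.003, -2.46, -3.05, -2.68 and -3.31. All 5 values of hours 6 to 10 lay below every value of hours 1 to 4. The mean was -2.70 over hours 6 to 10 and -1.63 over hours 1 to 5.

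The fitted linear change of SED1 was -0.22 ± 0.04 log2 units per hour (SE; 95% interval -0.31 to -0.13), or -1.996 over the 9 hours between the first and last array. It had an unadjusted p of 0.000277 in limma, the 11th smallest of 5775 genes, and did not pass after Benjamini-Hochberg adjustment (adjusted p = 0.117). No gene on the arrays passed for a linear change (0% called). The smallest adjusted p of any gene was 0.0920, and 641 genes (11.1%) had an unadjusted p under 0.05. In the 22 other settings in which it was refitted as a change per hour, the change of SED1 was negative, between -0.28 and -0.16 per hour, with adjusted p-values from 0.0791 to 0.796. Within odd hours alone it was -0.16 per hour and within even hours alone -0.28.

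CWP1 is a GPI-type wall protein found mainly in birth scars, and its gene is the neighbour of CWP2. It was less far below the array median and more variable. CWP1 ran from -3.27 at hour 5 to 0.72 at hour 1, with a median of -1.29 and a mean of -1.16 ± 1.10. It lay above the array median at hour 1 and close to it at hour 2 (-0.11) and hour 8 (-0.34). Its linear change of -0.16 ± 0.09 per hour (SE) did not pass (adjusted p = 0.568 in limma). Without hours 1 and 2 the change was 0.05 per hour. The neighbours CWP2 and CWP1 thus had means of -3.09 and -1.16, with CWP2 the lower at every hour. They came closest at hour 5, at -3.31 for CWP2 and -3.27 for CWP1.

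In the PIR group the lowest ratio was that of HSP150, also called PIR2, a protein that is induced by heat and partly released into the medium. HSP150 ran from -3.38 at hour 4 to -1.58 at hour 2, with a median of -2.54 and a mean of -2.49 ± 0.56 (5.63-fold lower). Its values of hours 1 and 2, -1.76 and -1.58, were the highest. The linear change of -0.10 ± 0.05 per hour (SE) did not pass (adjusted p = 0.470 in limma), and without hours 1 and 2 it was -0.01.

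CIS3, also called PIR4, and PIR1 were moderately below the array median, with little scatter. CIS3 ran from -1.80 at hour 8 to -1.28 at hour 10, with a median of -1.51 and a mean of -1.53 ± 0.15 (2.89-fold lower). PIR1, another protein with the internal repeats, ran from -1.66 at hour 5 to -0.83 at hour 10, with a median of -1.19 and a mean of -1.19 ± 0.23 (2.29-fold lower). The SD of CIS3 over hours was the 13th smallest of 5775 genes, and that of PIR1 the 157th. The median SD of all genes tested was 0.62, and the SDs of the GPI-type genes lay between 0.47 and 1.10. The scatter over hours played no part in the choice of the genes, but it was compared here after the values had been seen and was not tested.

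**Figure D2:**
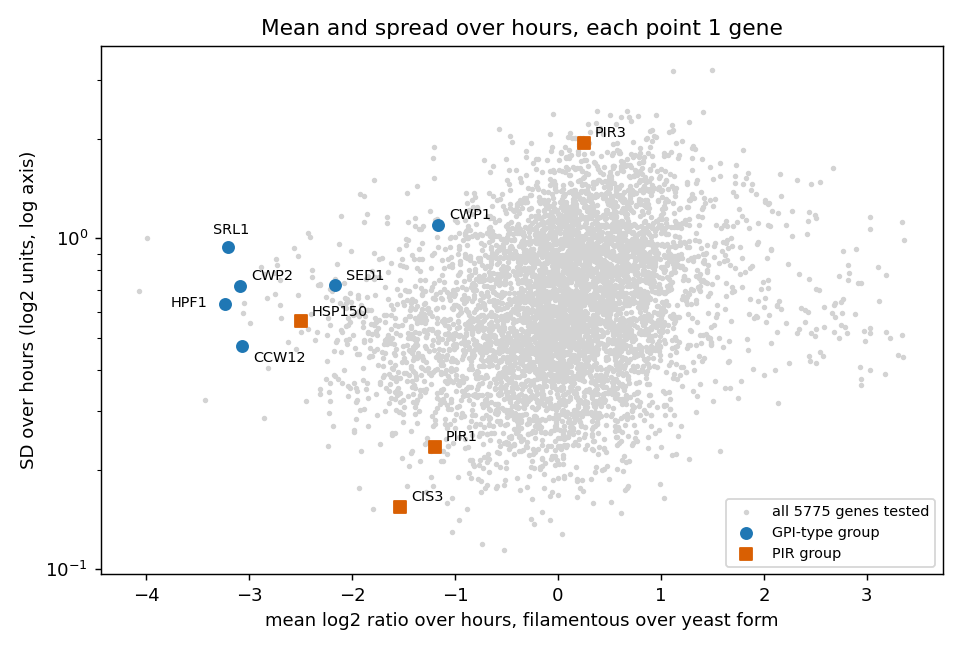
Mean log2 ratio over hours (horizontal axis) against the SD over hours (vertical axis, log scale) for all 5775 genes tested in grey, with the GPI-type genes as blue circles and the PIR genes as orange squares. CIS3 and PIR1 lie near the lower edge with SDs of 0.15 and 0.23, and PIR3 near the upper edge with 1.95.

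PIR3, a further repeat protein, is encoded beside PIR1. Its ratios from hour 1 to hour 10 were -0.47, -0.99, -0.97, -0.82, -0.55, -0.82, 4.54, -0.58, 3.15 and 0.01. Hours 7 and 9 were far above the others, while hour 8 between them was among the low values. At hour 7 PIR3 had the 10th highest ratio of 5557 genes, and at hour 9 the 71st of 5651. If the ratio runs the other way, these are ranks from the lowest.

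The mean of PIR3, 0.25 ± 1.95, therefore rested on these 2 arrays. It was -0.23 without hour 7 and -0.65 ± 0.33 over the 8 hours other than 7 and 9, a setting chosen after the data were seen, and the median was -0.57. Both high arrays were of odd hours. Odd hours averaged 1.14 and even hours -0.64. PIR1, the neighbour on one side, stood at -1.19 at both hour 7 and hour 9. Whether the PIR1 and PIR3 spots share signal was not tested. The neighbour on the other side, YKL162C, was at -0.09 and 0.86 at those hours. Among genes with all 10 values, PIR3 was the only one above 2 at hours 7 and 9 and below 1 at each other hour, by limits set after its values were seen. Whether these 2 spots reflect the transcript or the arrays was not tested. The linear change of PIR3, 0.31 ± 0.18 per hour (SE), did not pass (adjusted p = 0.575 in limma).

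Set in order of their means, the genes ran HPF1, SRL1, CWP2, CCW12, HSP150, SED1, CIS3, PIR1, CWP1 and PIR3. As a description without a test, neighbours among the first 4 differed in mean by 0.02 to 0.12, with SDs of the hourly differences of 0.46 to 1.13. In each of these 3 steps the gene with the lower mean was the lower at 4 of 10 hours. CCW12 was lower than HSP150 at 10 of 10 hours, with a mean gap of 0.57 (SD of the hourly differences 0.39). HSP150 was lower than SED1 at 9 hours (0.33, SD 0.62), SED1 lower than CIS3 at 8 (0.63, SD 0.73) and CIS3 lower than PIR1 at 9 (0.34, SD 0.18). PIR1 was lower than CWP1 at 4 hours (0.03, SD 0.99) and CWP1 lower than PIR3 at 7 (1.41, SD 2.43).

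As groups, the GPI-type genes had a median of means of -3.07 and the PIR genes one of -1.36, a difference of -1.71. The groups overlapped, since CWP1 had a mean near that of PIR1, and HSP150 lay below SED1. The group mean was -2.65 ± 0.83 for the GPI-type genes (SD, n = 6 genes) and -1.24 ± 1.14 for the PIR genes (n = 4 genes). At each of the 10 hours the median of the GPI-type group was the lower. The hourly difference was smallest at hour 3, at -0.68, where the medians were -1.91 for the GPI-type genes and -1.23 for the PIR genes. It was largest at hour 4, at -2.17, with medians of -3.69 for the GPI-type genes and -1.52 for the PIR genes. It averaged -1.37 over odd hours and -1.59 over even hours. The median of the PIR group lay between -1.62 and -1.05, while that of the GPI-type group moved between -3.69 and -1.91. At every hour HSP150 was the lowest and PIR3 the highest PIR gene. The PIR median was therefore set by PIR1 and CIS3 alone, which had little scatter. It does not describe HSP150 (-3.38 to -1.58) or PIR3 (SD 1.95), and each hourly difference sets the GPI-type median against PIR1 and CIS3. The members had been listed with these means known, so the difference carries no test. It was -1.70 without SRL1, -1.54 without PIR3 and -1.41 with means in place of medians.

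**Figure D3:**
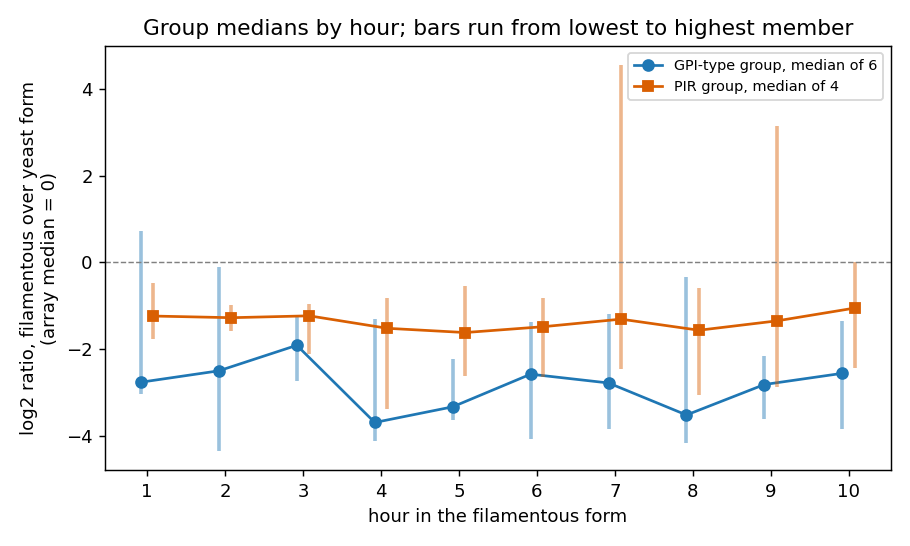
Median log2 ratio of filamentous over yeast form (vertical axis, array median at 0) by hour (horizontal axis) for the GPI-type group in blue and the PIR group in orange, with bars from the lowest to the highest member. The GPI-type median is the lower at all 10 hours, and the bars of the groups overlap at all 10 hours.

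The change over hours was orthogonal to the mean and was tested for each gene in the fit across all 5775 genes. None of the 10 genes passed for a linear change, with adjusted p-values from 0.117 for SED1 to 0.999 for PIR1, and SED1 alone had an unadjusted p under 0.05. None passed for curvature either, with adjusted p-values from 0.437 for HPF1 to 0.983 for PIR3 (0% of all genes called, 10.4% with an unadjusted p under 0.05). HPF1 and CWP2 had unadjusted p-values for curvature of 0.0225 and 0.0483. The lowest hours of HPF1 and CWP2, 6 and 8, lay in the middle or later part of the series. For PIR1 and CIS3 the 95% intervals of the linear change were -0.07 to 0.08 per hour each, the narrowest of the 10. For CCW12 the interval was -0.16 to 0.09.

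Over the 10 arrays, some genes of the 2 groups varied together. The closest pair crossed the groups, CWP2 and CIS3, with Pearson's r of 0.92 (0.92 also with odd and even means removed). CCW12 and CIS3 followed at 0.81 and CWP2 and CCW12 at 0.78. Over the 15 pairs within the GPI-type group the median r was 0.26, over the 6 pairs within the PIR group 0.38, and over the 24 mixed pairs 0.38. These values share the 10 arrays and the yeast-form channel, and are a description only. PIR3 had the lowest values, -0.39 with SED1 and -0.38 with HPF1.

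Among 4257 other named genes with all values, those most like the mean profile of the GPI-type group were ALG1, a mannosyltransferase of the lipid-linked sugar precursor for N-glycans (r = 0.95), COS2 (r = 0.94) and YET3 (r = 0.94). ALG1 itself had a mean of 0.14 ± 0.50, so the likeness is one of shape over the arrays and not of the mean ratio. The mean profile of the PIR group includes PIR3, which had the largest SD of that group (1.95). Its r of 0.92 with PIR3 was therefore largely fixed in advance and is not read as a result. PIR3 itself had r of 0.07 with PIR1, -0.15 with HSP150 and 0.28 with CIS3, so this profile does not describe those genes. The genes closest to this profile were KAR5 (r = 0.85), YCK1, a casein kinase of the plasma membrane (r = 0.85), and FRM2 (r = 0.83). For both groups these were the highest of 4257 correlations over only 10 arrays, so high values come in part from the selection. Odd and even means were not removed here, and no shared function is read from the likeness.

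Other genes of the wall were described from 5 lists, to set the mannoproteins beside the proteins around them. The lists were drawn up with earlier results of these data known. Their counts, here and below, are therefore a description and no evidence about wall genes as a class. In limma 22.4% of all 5775 genes were lower and 22.6% higher for the mean over hours at an adjusted p under 0.05, or 45% in either direction. Among the other GPI-type wall proteins listed, 18 of 30 passed as lower and 1 as higher (list median -0.71). The list does not cover the whole class, and the TIR and DAN wall proteins were not in it. DSE2, a daughter-cell wall protein, was at -2.82 ± 0.66, GAS1, a glucan-remodelling enzyme, at -2.04 ± 0.36, ECM33 at -1.98 ± 0.37 and GAS3 at -1.45 ± 0.20 (limma adjusted p from 1.5e-06 to 2.8e-06). CCW14, an inner-layer wall protein, was at -1.40 ± 0.40 (limma adjusted p = 2.0e-05). The higher one was TIP1, a cold-shock mannoprotein, at 1.13 ± 0.82, named after its value was seen.

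Of 16 wall proteins listed as soluble or loosely held, with PIR5 among them, 10 passed as lower and 1 as higher (list median -1.56). How each listed protein, PRY3 included, is attached was not examined here. SCW10 was at -2.81 ± 0.41, TOS1 at -2.45 ± 0.32, PRY3 at -2.43 ± 0.53 while CTS1, a chitinase that frees daughter cells, was at -2.18 ± 0.39 (limma adjusted p from 3.3e-07 to 1.9e-06 for these 4). PIR5, the neighbour of HSP150 and the fifth PIR gene, was at -0.20 ± 0.31 and did not pass (limma adjusted p = 0.161). SVS1, a homologue of SRL1, was the higher one at 0.66 ± 0.68 (limma adjusted p = 0.00995), on the other side of the array median from SRL1. Neighbours of the mannoprotein genes did not share one direction. AHP1, a peroxiredoxin gene beside CCW12, was at 1.66 ± 0.43, and MCD4, beside PIR1, at -1.83 ± 0.44. These neighbours were looked up after the values were seen.

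**Figure D4:**
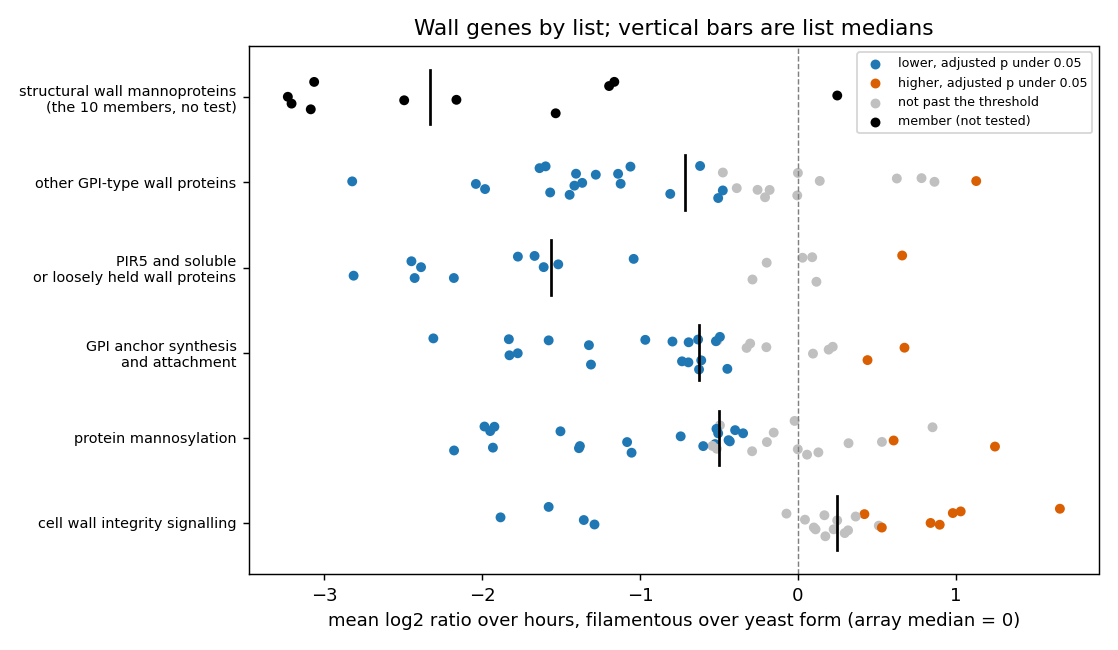
Mean log2 ratio over hours (horizontal axis, array median at 0) of the 10 mannoproteins and of 5 lists of other wall genes (rows), each point 1 gene, with bars at the list medians. The medians are -2.33 for the 10 genes, -0.71, -1.56, -0.63 and -0.50 for the next 4 lists, and 0.25 for wall integrity signalling.

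With centred arrays, genes that make and decorate wall proteins had more lower than higher calls, beside 22.4% lower and 22.6% higher of all genes. For GPI anchor synthesis and attachment, 18 of 27 passed as lower and 2 as higher (list median -0.63). PER1, a lipid remodeller of anchored proteins, was at -2.31 ± 0.34. MCD4 and LAS21, which add phosphoethanolamine to the anchor, were at -1.83 ± 0.44 and -1.83 ± 0.44, and GPI1, of the enzyme that starts the anchor, at -1.58 ± 0.33. For protein mannosylation, 19 of 34 passed as lower and 2 as higher (list median -0.50). VRG4, which brings GDP-mannose into the Golgi, was at -2.18 ± 0.46. PMT2 and PMT4, which start O-mannosylation, were at -1.98 ± 0.26 and -1.92 ± 0.30, and DPM1, the dolichol-phosphate-mannose synthase, at -1.95 ± 0.35. The limma adjusted p-values of these 8 lower genes ran from 3.9e-07 for PMT2 to 6.4e-06 for GPI1. The higher genes of the anchor list were GPI12 at 0.68 ± 0.66 and GPI15 at 0.44 ± 0.36. Those of the mannosylation list were HOC1 at 1.25 ± 0.63 and KTR6 at 0.61 ± 0.52, all named after their values were seen. On the deposited scale, without centring, 11 of the 34 mannosylation genes passed as lower and 5 as higher (list median -0.20). Of the 27 genes of the GPI anchor list, 12 passed as lower and 5 as higher (list median -0.33). The share of all genes called without centring was not computed, so the counts on that scale have no background beside them. The smaller margin there is therefore not read as a result about these lists.

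Signalling genes of the wall integrity pathway, which act through the kinases Pkc1 and Slt2, had 4 of 23 lower and 7 higher (list median 0.25), beside 22.4% lower and 22.6% higher of all genes. On the deposited scale 4 were lower and 14 higher (list median 0.55), and with even hours alone 5 were lower and 4 higher. The shares of all genes called in those settings were not computed. These counts are therefore not read as a result about the list. WSC2, a wall sensor, was at -1.88 ± 0.49 and SWI4, a transcription factor of G1 and of wall genes, at -1.58 ± 0.58. MTL1, another wall sensor, was at 1.03 ± 0.16 and SAC7, a Rho1-inactivating protein, at 1.66 ± 0.49. These 4 had limma adjusted p-values from 4.5e-06 for SAC7 to 1.5e-05 for MTL1. The difference between the lists was not tested.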

How the data were processed

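Per the labels, filamentous-form and yeast-form RNA were hybridised together on each of the 10 arrays. The deposited table holds 1 value per open reading frame and array, taken here as a log2 ratio. With base 2, 98.4% of values other than 0 gave ratios in whole ten-thousandths within 0.02, against 4.60% with base e. Dyes, scanner, background correction, normalization and any centring by the authors are unknown here, and array medians were 0.12 to 0.39. All 62920 values end in the digit 3 at the seventh decimal. The 3324 entries (5.28%) that read 0.0000003 were taken as zeros and so as missing. None of them belongs to the 10 mannoprotein genes.

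Array medians were subtracted. The 5775 genes with 8 or more values were fitted in limma 3.58.1 (R 4.3.3) by the mean, the linear change and the curvature over hours as orthogonal terms. Two-sided p-values were adjusted over all genes by the Benjamini-Hochberg method and called under 0.05. Nothing in the labels says that hours came from separate cultures, so p-values measure scatter that may be technical. Names came from a RefSeq R64 gene table, which matched 5792 of 6292 frames. The code was tested on simulated data. Figures were drawn with matplotlib 3.10.9.

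Members, lists and tests were chosen with earlier results of these data known. Of each list, up to 4 genes with the smallest adjusted p past the threshold were named, and PIR5, SVS1 and CCW14 whatever their values. TIP1, GPI12, GPI15, HOC1 and KTR6 were named after their values were seen. The 3 genes closest in profile to each group were named by Pearson correlation. Protein and promoter sequences were not analysed here. Alternatives covered centring, near-zero entries, filters, variance model, array weights, odd and even hours, hours left out, scaling and the time model. Leaving PIR3 or CWP1 out of its group, and PIR3 without hours 7 and 9, were added after the data were seen.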

Additional observations from a re-analysis of the deposited data

How the results depend on the processing

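The difference between the group medians was negative in every setting run, from -1.79 with even hours alone to -1.41 with means in place of medians. With each hour left out it ran from -1.76 to -1.63. The members were listed with these means known, and the GPI-type median was the lower at all 10 hours. Settings that drop hours or centring could hardly turn the sign, so nothing is read from its constancy. No gene passed for a linear change or curvature in any setting except quantile normalization, where 10 genes passed for a linear change and none of the 10 mannoproteins did. On the deposited scale, 27 genes of the 5 wall lists were higher in place of 13, and 52 lower in place of 69. With each hour left out, 12 to 15 were higher and 66 to 70 lower. With odd hours alone 12 mannosylation genes were lower and 0 higher, in place of 19 and 2. Of the other GPI-type proteins 1 was higher, but 3 with odd hours alone, and 2 with even hours alone, on the deposited scale, without hour 8 and without hour 10. The shares of all genes called in these other settings were not computed. The shifts in these counts are therefore not read as results about the lists. The means of PIR1 and CIS3 on the deposited scale, -0.90 and -1.24, moved by more than their small SDs.

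None of the 220 linear changes in other settings passed, and 31 had the other sign, from 7 of the 10 genes and none from SED1, HSP150 or PIR3. The changes per hour of the other sign were as follows. For SRL1 they were 0.015 with array weights, 0.029 with a term for odd and even hours, 0.0052 with odd hours, 0.053 with even hours and 0.0084 after quantile normalization. For PIR1 they were -0.011 on the deposited scale, -0.031 with odd hours, -0.015 with arrays scaled to equal spread and -0.011 after quantile normalization. For CIS3 they were -0.0086 on the deposited scale and -0.019 with scaled arrays. For CWP2 they were 0.044 with even hours, 0.067 without hours 1 and 2 and 0.013 after quantile normalization. HPF1 gave 0.063 with even hours and 0.016 without hours 1 and 2, where CWP1 gave 0.049 and CCW12 0.00074. With each hour left out the change of CCW12 kept its negative sign, from -0.078 to -0.0027. Both signs occurred with each hour left out for CIS3 (-0.018 to 0.013), CWP2 (-0.11 to 0.022), PIR1 (-0.030 to 0.019) and SRL1 (-0.071 to 0.056). The cause was not tested. Signal over background is unknown, so what it limits is not known either.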
